A study of Homo sapiens with 4 samples.

Results

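CD38, its neighbour BST1 and 8 further genes of NAD metabolism (NAMPT, NAPRT, NMNAT1, NMNAT3, NADSYN1, SIRT1, PARP1 and NADK) were followed in RNA-seq libraries of NK-92 cells with and without knockdown of ADAR1, the enzyme that converts adenosine to inosine in double-stranded RNA. The 10 genes were chosen by name, and each matched 1 of the 20323 genes of the table by its Ensembl identifier. NK-92 is a human natural killer (NK) cell line that depends on interleukin 2 and was grown with it in all libraries. Cells of both groups had been transduced with a lentivirus that expresses a short hairpin RNA. NK scramble cells (2 libraries, the controls) received a scrambled hairpin and NK shADAR1 cells (2 libraries, the knockdown) a hairpin against ADAR1. Where a pair of values is given for a group, replicate 1 comes first and replicate 2 second. All values come from 1 cell line, and in bulk RNA fewer cells with a transcript and less transcript per cell cannot be told apart.

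NAD carries electrons in metabolism and is also a substrate that several enzymes destroy. CD38 and BST1 (CD157) are surface enzymes that split NAD into nicotinamide and ADP-ribose or cyclic ADP-ribose, and CD38 is widely used as a surface marker of activated lymphocytes, NK cells and plasma cells. Cells rebuild NAD from nicotinamide by salvage (NAMPT, then NMNAT enzymes), from nicotinic acid by the Preiss-Handler route (NAPRT, NMNAT enzymes and NADSYN1) or from tryptophan by the de novo route. Sirtuins such as SIRT1 and ADP-ribosyl transferases such as PARP1 consume NAD inside the cell, and NADK turns it into NADP.

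The hairpins define the groups compared, and the region just before CD38 is shown because CD38 had the largest difference between the groups among the 10 genes. Both hairpin target sequences listed by the study are given 5′ to 3′ in lower case.
shADAR1-1: gcactggcagtctccgggtgt
shADAR1-2: gccgtgtcccgaggaagtgca
Each of the 21-base sequences matched 3 of 206694 transcripts of GENCODE release 29, all of them of ADAR. The labels number the knockdown libraries 1 and 2 with these same names. They number the scramble libraries 1 and 2 as well, though the study lists only 1 scrambled sequence. The study describes 2 independent replicates and names shADAR1-2 cells for its RNA-seq. Whether both knockdown libraries carried the same hairpin was not settled here, and the libraries are called replicates 1 and 2. The 197 bases that end at the first base before CD38, at chr4:15778078-15778274 on the plus strand of GRCh38.p14 (RefSeq), read as follows.
CD38 upstream: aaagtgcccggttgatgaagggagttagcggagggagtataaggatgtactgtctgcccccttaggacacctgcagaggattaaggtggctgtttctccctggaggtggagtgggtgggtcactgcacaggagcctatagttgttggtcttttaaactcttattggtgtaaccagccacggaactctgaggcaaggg
Promoter windows were searched on both strands for the core of the interferon-stimulated response element (GAAA, 2 bases of any kind, GAAA) and for the gamma-activated site (TTCNNNGAA). The first was found in 4.38% and the second in 9.38% of 27305 genes with a window. Windows were at hand for 8 of the 10 genes, all but BST1 and NAPRT, and 0 of the 8 held either motif, CD38 included. With shares this low over all genes, 0 of 8 is an ordinary count and sets these genes apart from no others. Sites outside the windows were not searched.

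The libraries held 37881704 to 39960491 estimated counts, so depth differed little. CPM values given here are estimated counts scaled to a common depth after TMM normalization of the libraries, and FPKM values are the authors' counts scaled by transcript length and by mapped fragments. ADAR, the targeted gene, had 655 and 682 CPM in the control libraries and 575 and 482 CPM in the knockdown libraries. The groups did not overlap, but the log2 fold change of -0.34 (standard error, SE, 0.20) did not pass the test (unadjusted p = 0.127, adjusted p = 1.00, edgeR's quasi-likelihood test). The study itself reported the knockdown from qRT-PCR and western blotting, which are measurements other than these libraries. All 12 NK cell markers were detected, with summed levels of 5215 to 5748 CPM in NK scramble and 5403 to 5950 CPM in NK shADAR1 libraries. Of the 6 T cell markers TRAC reached 140 CPM and the other 5 stayed at or under 0.61 CPM each. Of the B cell markers MS4A1 was at 0 in every library, while CD79A reached 2.34 CPM and PAX5 43.8 CPM. Myeloid markers reached at most 4.26 CPM, and epithelial and melanocytic markers at most 0.776 CPM.

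CD38 was lower in both NK shADAR1 libraries than in both NK scramble libraries. The control libraries held 32.7 and 45.3 CPM (1306 and 1780 estimated counts) and the knockdown libraries 21.0 and 26.6 CPM (826 and 993 estimated counts). The groups did not overlap, and the knockdown libraries lay nearer to each other in CPM than the control libraries did. The log2 fold change of NK shADAR1 against NK scramble was -0.71 (SE 0.23, 95% interval from -1.23 to -0.19), so the knockdown level was 0.61 times the control level. On the log2 scale the control libraries differed from each other by 0.47 and the knockdown libraries by 0.34, both less than the difference between the groups. In edgeR's quasi-likelihood test the unadjusted p was 0.0118, the 50th smallest of 11810 tested genes, and the adjusted p was 1.00. CD38 therefore did not pass the threshold (adjusted p under 0.05, fold change 1.5 or more), which 0.0% of all tested genes passed (0 of 11810 in edgeR and 0 in DESeq2). This differs from the study, which used DESeq2 with the same cutoffs, reported genes that passed and described CD38 expression as decreased. The study also found fewer CD38-positive NK-92 cells by flow cytometry after knockdown. Why the counts of called genes differ was not tested. At an unadjusted p under 0.05 edgeR counted 293 genes, or 2.48%, of which 92 (0.779% of tested genes) were lower in NK shADAR1. The authors' FPKM values had the same order, with 6.44 and 9.23 for the controls and 4.03 and 4.65 under knockdown. Without NK scramble replicate 2, the library with the highest CD38 level, the log2 fold change was -0.47 (unadjusted p = 0.108, edgeR), and without NK shADAR1 replicate 1 it was -0.55 (unadjusted p = 0.0829, edgeR).

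**Figure D1:**
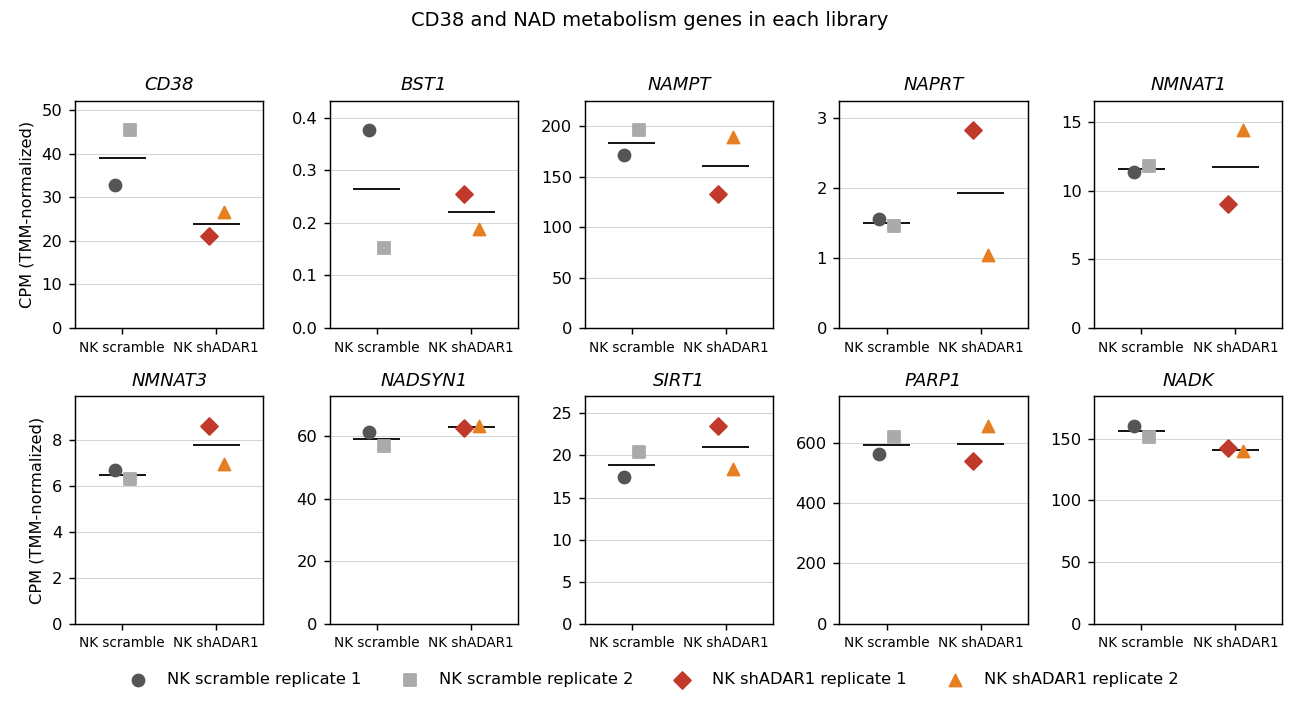
TMM-normalized CPM (y axis, from 0 in each panel) of the 10 genes in the 2 NK scramble and 2 NK shADAR1 libraries, 1 point per library, with a bar at the mean of each group. CD38 lay between 32.7 and 45.3 CPM in NK scramble and between 21.0 and 26.6 CPM in NK shADAR1 libraries, while the groups of PARP1, NAMPT, SIRT1, NMNAT1, NAPRT and BST1 overlapped.

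BST1, the gene next to CD38, was close to the limit of detection. CD38 (ENSG00000004468, bases 15778275 to 15853230 of chromosome 4, GRCh38, GENCODE release 29) and BST1 (ENSG00000109743, bases 15702950 to 15738313) lie on the same strand with 39961 bases between them. The control libraries held 15 and 6 estimated counts of BST1 (0.376 and 0.153 CPM), and the knockdown libraries 10 and 7 (0.254 and 0.187 CPM). The counts of the groups overlapped, and the log2 fold change of -0.25 had an SE of 0.74, so at this depth a difference of the size seen for CD38 was not detectable. By FPKM the groups of BST1 did not overlap (0.409 and 0.176 against 0.173 and 0.148), since the counts behind 1 FPKM ranged from 34.1 to 57.8 between libraries for this gene. Per length, CD38 stood 15.7 to 52.4 times above BST1 in FPKM, depending on the library. Of the pair of surface NAD glycohydrolases, CD38 thus made up nearly all transcript.

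The salvage enzyme NAMPT, which makes nicotinamide mononucleotide and sets the pace of NAD salvage, overlapped between the groups. Its levels were 171 and 196 CPM in the control libraries and 133 and 189 CPM in the knockdown libraries. Only NK shADAR1 replicate 1, which also had the lowest CD38 level, lay below the controls, and the log2 fold change was -0.19 (SE 0.22, unadjusted p = 0.416, edgeR). NAPRT, which feeds nicotinic acid into NAD synthesis, had low levels of 1.55 and 1.45 CPM in the control libraries and 2.82 and 1.04 CPM in the knockdown libraries. The knockdown libraries held both the highest and the lowest NAPRT level, and they were farther apart (replicate 2 minus replicate 1 was -1.39 on the log2 scale) than the groups were, at a log2 fold change of 0.37 (SE 0.52).

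NMNAT1 and NMNAT3 join the mononucleotide to ATP in the nucleus and in mitochondria. NMNAT1 had 11.4 and 11.8 CPM in the control libraries and 9.05 and 14.4 CPM in the knockdown libraries, so the control libraries lay between the knockdown libraries and the log2 fold change was 0.02 (SE 0.27). NMNAT3 had 6.69 and 6.31 CPM in the control libraries and 8.62 and 6.96 CPM in the knockdown libraries. Both knockdown libraries were above both control libraries, but the log2 fold change of 0.26 had an SE of 0.27 (unadjusted p = 0.353, edgeR). NADSYN1, the last enzyme of the Preiss-Handler and de novo routes, varied least within the knockdown group and had 61.5 and 57.0 CPM in the control libraries and 62.8 and 63.3 CPM in the knockdown libraries. Its groups did not overlap by CPM but did by FPKM, and the log2 fold change was 0.09 (SE 0.19, unadjusted p = 0.654, edgeR).

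Among the intracellular NAD users, SIRT1, a nuclear deacetylase, had 17.5 and 20.4 CPM in the control libraries and 23.5 and 18.4 CPM in the knockdown libraries. The groups overlapped, with NK shADAR1 replicate 1 highest, and the log2 fold change was 0.15 (SE 0.22). PARP1, which adds poly-ADP-ribose chains to proteins at DNA breaks, had 562 and 621 CPM in the control libraries and 538 and 656 CPM in the knockdown libraries. Again the control libraries lay between the knockdown libraries, with a log2 fold change of 0.01 and a 95% interval from -0.45 to 0.48. NADK, the cytosolic NAD kinase, had 160 and 152 CPM in the control libraries and 142 and 140 CPM in the knockdown libraries. The groups of NADK did not overlap by CPM or by FPKM, but the log2 fold change of -0.15 (SE 0.19, unadjusted p = 0.456, edgeR) was small beside the spread that edgeR estimated from all genes.

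In all, 4 of the 10 genes had a log2 fold change below 0 and 6 above 0, with a median of 0.02 against 2.8e-05 over all tested genes. CD38 was the one gene of the 10 with an unadjusted p under 0.05. The knockdown libraries lay below the controls for 2 of the 10 genes, CD38 and NADK, where 12.6% of all tested genes did, and above them for 2, NMNAT3 and NADSYN1, where 13.3% did. Apart from CD38, none of the 10 genes had a log2 fold change beyond 0.37 in size. The 95% intervals of NAMPT, NMNAT1, NADSYN1, SIRT1, PARP1 and NADK reached from -0.68 at the lowest to 0.64 at the highest. Those of NMNAT3 (-0.33 to 0.86), NAPRT (-0.79 to 1.52) and BST1 (-1.91 to 1.40) reached further. Differences within each gene's own interval were not excluded.

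**Figure D2:**
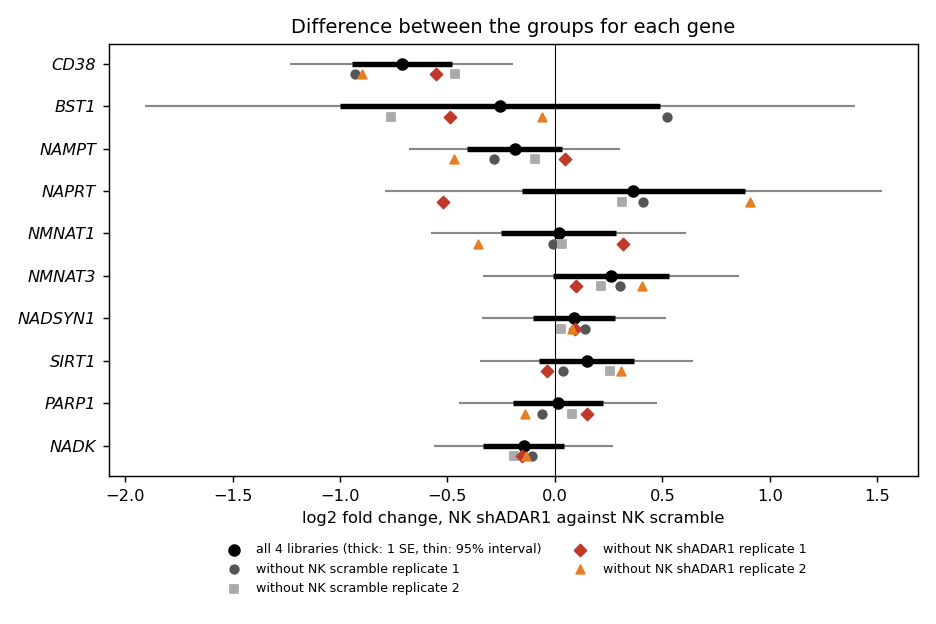
Log2 fold change of NK shADAR1 against NK scramble (x axis) for each of the 10 genes (y axis) from edgeR, with black points for all 4 libraries, thick bars for 1 standard error, thin bars for the 95% interval, and coloured points for the value with 1 library left out. CD38 stayed between -0.93 and -0.47 whichever library was left out, whereas BST1, NAMPT, NAPRT, NMNAT1, SIRT1 and PARP1 had values on both sides of 0.

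Per transcript length the 10 genes spanned a wide range. Over the 4 libraries PARP1 had the highest mean, 149 FPKM, followed by NAMPT with 71.6, NADK with 49.6 and NADSYN1 with 24.1 FPKM. The libraries of these genes did not overlap with those of the next gene in the order. CD38 (mean 6.09, from 4.03 to 9.23 FPKM), SIRT1 (mean 5.13, from 4.55 to 6.13 FPKM) and NMNAT1 (mean 4.69, from 3.40 to 5.66 FPKM) formed a middle group whose ranges overlapped from each to the next. NMNAT3 (mean 1.04 FPKM) and NAPRT (mean 1.01 FPKM) overlapped as well, and BST1 was lowest with 0.227 FPKM. NAMPT thus stood 36.8 to 131 times above NAPRT in FPKM, NMNAT1 2.62 to 5.77 times above NMNAT3, and PARP1 22.9 to 34.6 times above SIRT1. Of the enzymes that open the salvage and Preiss-Handler routes, NAMPT was thus far more abundant than NAPRT. Transcript lengths behind the FPKM values were not given, so the order between genes rests on the lengths that the authors' program used.

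**Figure D3:**
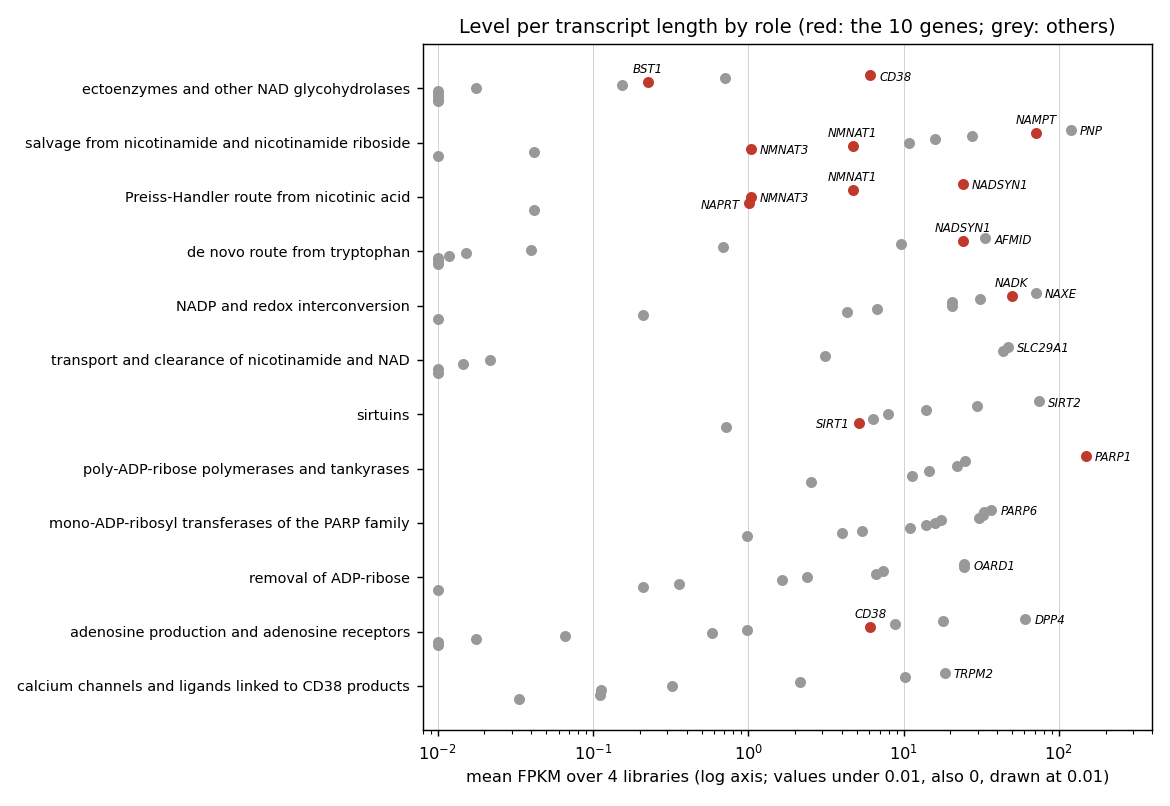
Mean FPKM over the 4 libraries (x axis, log scale, values under 0.01 drawn at 0.01) of the genes in each role list of NAD metabolism (y axis, 1 point per gene), with the 10 genes in red and the gene with the highest level in each list named. PARP1 (149 FPKM) was the highest of the 10 and BST1 (0.227 FPKM) the lowest.

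The rest of the pathway was read from lists of 83 further genes, of which 60 had enough counts for the test and 15 had at most 3 counts in every library. Of the 60, 33 had a log2 fold change below 0 and 27 above 0, with a median of -0.05. Only PARP12 had an unadjusted p under 0.05, that is 1 of 60 where 2.48% of all tested genes had one. Groups did not overlap for 10 genes that were lower and 10 that were higher, or 16.7% each, against 12.6% and 13.3% of all tested genes. PARP12, a mono-ADP-ribosyl transferase known to be induced by interferon, had 115 and 98.0 CPM in the control libraries and 74.7 and 67.0 CPM in the knockdown libraries. Its groups did not overlap, and its log2 fold change was -0.59 (SE 0.20, unadjusted p = 0.0148, adjusted p = 1.00, edgeR). Its promoter window held 1 match to the interferon-stimulated response element core and none to the gamma-activated site. Listed with the mono-ADP-ribosyl transferases were 11 PARP family genes, ZC3HAV1 among them. Of these, 9 had a log2 fold change below 0 and 2 above 0 (median -0.20), where 5905 of all 11810 tested genes were below 0. PARP15 had the largest log2 fold change of the list, 0.79 (SE 0.36, unadjusted p = 0.0512, edgeR). It had 2.43 and 3.97 CPM in the control libraries and 6.41 and 4.69 CPM in the knockdown libraries. PARP6 was the most abundant of these per length, with 36.7 FPKM and a log2 fold change of -0.08.

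Among the other ectoenzymes that handle NAD, ART1, ART3, ART4 and ART5 were at 0 in every library. SARM1, an intracellular NAD glycohydrolase, had between 3.80 and 5.46 CPM. CD38 can start a chain that turns NAD into adenosine, in which ENPP1 makes AMP and NT5E (CD73) makes adenosine. NT5E had at most 2 counts and ENPP1 at most 5 counts in any library, so both genes were at or near the limit of detection while CD38 was not. ENPP3, also in the ectoenzyme list, had 13 and 13 counts in the controls and 25 and 15 under knockdown. Its log2 fold change was 0.66 (SE 0.61). ENTPD1 (CD39), which acts on ATP and ADP, had 12.7 and 12.8 CPM in the control libraries and 10.5 and 9.83 CPM in the knockdown libraries, with a log2 fold change of -0.33 (SE 0.22, unadjusted p = 0.170, edgeR). Adenosine receptor ADORA2A was present at 33.4 to 45.0 CPM, and DPP4 (CD26), the surface partner of adenosine deaminase, was the most abundant of the list per length with 60.8 FPKM and a log2 fold change of -0.19 (SE 0.19). The ART genes, SARM1, ENPP1, ENPP3, NT5E, ENTPD1 and ADORA2A are named for their place in the pathway and were chosen after their values were seen. So were QPRT, NMRK1 and the genes at 0 or under 6 counts named next.

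The de novo route from tryptophan was present only in part. TDO2, IDO1 and IDO2, which open the route, and KMO, HAAO and ACMSD had under 6 counts in every library. AFMID had 33.6 FPKM and a log2 fold change of -0.17, KYNU had 0.801 to 1.43 CPM and QPRT had 14.1 to 19.4 CPM. Salvage was better represented. PNP, which releases nicotinamide from its riboside, had 177 and 187 CPM in the control libraries and 133 and 186 CPM in the knockdown libraries, with NK shADAR1 replicate 1 lowest, as for NAMPT and CD38. NT5C3A, a nucleotidase, had the largest log2 fold change of the salvage list, -0.36 (SE 0.22). NMRK2, which phosphorylates nicotinamide riboside in muscle, was at 0. NMRK1, the other riboside kinase of the salvage list, had 22.4 and 29.1 CPM in the control libraries. In the knockdown libraries NMRK1 had 32.2 and 32.5 CPM, with a log2 fold change of 0.33 (SE 0.21). NNMT, which methylates nicotinamide for clearance, had at most 1 count. The nucleoside transporter SLC29A1 had 112 and 85.9 CPM in the control libraries and 70.2 and 79.4 CPM in the knockdown libraries, without overlap and with a log2 fold change of -0.40 (SE 0.21, unadjusted p = 0.0867, edgeR).

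Of the 7 sirtuins 4 had a log2 fold change below 0 and 3 above 0. SIRT2, a cytosolic deacetylase, was the most abundant per length, 13.3 to 17.0 times above SIRT1 in FPKM, with a log2 fold change of 0.01 (SE 0.19). SIRT4 had the largest log2 fold change of the family, -0.69, at only 13 to 39 counts and with an SE of 0.59. In the list for NADP and redox repair, NAXE, which repairs hydrated NADH and NADPH, had 70.8 FPKM and a log2 fold change of 0.11, and NUDT13 had at most 21 counts. Of the genes listed for the removal of ADP-ribose, OARD1 had 24.6 FPKM and a log2 fold change of 0.05. ADPRHL1, at only 20 to 49 counts, had a log2 fold change of 0.82 with an SE of 0.58. Tankyrase TNKS2 had a log2 fold change of 0.19 (SE 0.22). Of the calcium channels gated by products of CD38, TRPM2, which opens with ADP-ribose, was the most abundant per length with 18.4 FPKM and a log2 fold change of -0.20 (SE 0.24). PECAM1 (CD31), a surface ligand of CD38, had only 2 and 8 counts in the controls and 19 and 14 counts under knockdown, and its log2 fold change of 1.74 had an SE of 0.79 (unadjusted p = 0.0506, edgeR). The counts behind 1 FPKM of PECAM1 ranged from 41.5 to 286 between libraries.

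CD38 is known to be inducible by interferon, so its values were set beside a reference list of 25 type I interferon response genes. The study had already reported type I interferon target genes as lower in these data. The counts for the list are thus a description and no independent test. All 25 had a log2 fold change below 0 (5905 of all 11810 tested genes did), with a median of -1.05. Of the 25, 13 had an unadjusted p under 0.05 (edgeR), where 0.779% of all tested genes were lower at that p. For 19 of 25 (76%) the knockdown libraries lay below both controls, where 12.6% of all tested genes did. Against the mean of the NK scramble libraries, the median of the list was at -0.43 on the log2 scale in NK shADAR1 replicate 1 and at -1.72 in replicate 2, and all 25 genes were lower in replicate 2 than in replicate 1, as were 50.6% of all tested genes. CD38 was at -0.87 in replicate 1 and at -0.53 in replicate 2, so the order of the knockdown libraries differed between CD38 and the list. Whether interferon had a part in the CD38 result was not tested. ADAR, at -0.22 and -0.47, was lower in replicate 2, and PARP12 was at -0.50 and -0.66. PAX5, the B cell marker with the highest level, had 23.4 and 21.5 CPM in the control libraries and 43.8 and 19.1 CPM in the knockdown libraries. It was thus highest in NK shADAR1 replicate 1, which had the lowest CD38 level, and lowest in NK shADAR1 replicate 2. Whether PAX5 had any link to the CD38 result was not tested.

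**Figure D4:**
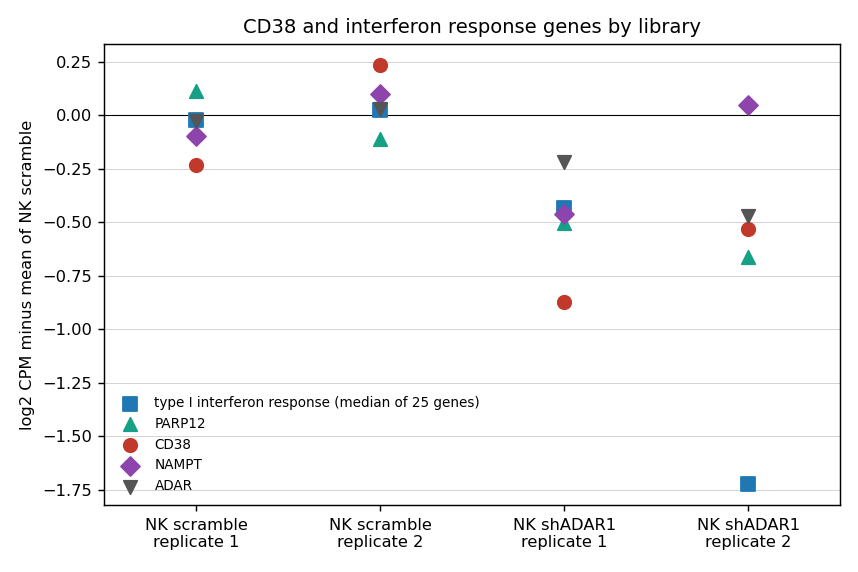
Log2 CPM in each of the 4 libraries (x axis) minus the mean of the NK scramble libraries (y axis) for CD38, NAMPT, PARP12 and ADAR and for the median of 25 interferon response genes, 1 point per library. The interferon median was -0.43 in NK shADAR1 replicate 1 and -1.72 in replicate 2, while CD38 was -0.87 and -0.53.

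The genes whose pattern over the 4 libraries was most like that of CD38 were sought among 9875 genes whose mean count was 100 or more, by the root mean square distance between log2 CPM values centred on each gene's mean. The nearest was GADD45B, a stress response gene (distance 0.109), with 40.5 and 47.1 CPM in the control libraries and 25.5 and 33.4 CPM in the knockdown libraries. It was followed by MMD (0.133), ANKRD42 (0.138), the sterol synthesis enzyme CYP51A1 (0.148) and the inositol phosphate kinase IPMK (0.156). All 5 were lower in both knockdown libraries by CPM (the groups of ANKRD42 overlapped by FPKM), with log2 fold changes from -0.59 to -0.48, which their choice by likeness to CD38 fixed. Among the genes of NAD metabolism the nearest was NAMPT, at a distance of 0.273 and place 369 of 9875, so none of them was among the closest genes. With 4 libraries many genes can lie this near to any one gene, and the distance is a description of these libraries.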

How the data were processed

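RNA of NK-92 cells was selected with oligo(dT), and 4 libraries were sequenced. The deposited values are estimated counts for each gene (not all whole, and not scaled for depth) and FPKM, for which the authors divided counts by the length of the transcript and the number of mapped fragments. Per the labels, reads were trimmed with fastp 0.18.0. The aligner, counting program, genome build and strand setting are not given in the sources used here, so overlapping and antisense genes could share counts. Of 20323 Ensembl identifiers, 20301 matched a symbol.

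Estimated counts were rounded to whole numbers, passed through filterByExpr (minimum count 10, edgeR 4.0.16, R 4.3.3) and normalized by TMM. The 4 libraries were compared by the quasi-likelihood test with no covariate, with Benjamini-Hochberg adjustment over 11810 genes. A gene was called when its adjusted p was under 0.05 and its fold change 1.5 or more. The standard error is the size of the log2 fold change divided by the square root of the F statistic. Log2 CPM for single libraries used a prior count of 2. Log2 CPM correlated at r = 0.981 between replicates in both groups and at 0.981 to 0.989 across groups, so replicates were no more alike than libraries of different groups. The biological coefficient of variation was 0.201, so the precision is set by 2 libraries a group more than by depth. With 2 libraries against 2, exact permutation cannot reach p = 0.05 and was not used. The scripts were tested on simulated data.

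The genes, lists and tests were chosen with earlier results of these data known. Genes named are the 10, ADAR, each wider NAD gene with an unadjusted p under 0.05, the gene with the highest FPKM and the one with the largest log2 fold change in each role list, and the 5 most like CD38. Others were chosen after their values were seen. Alternatives were DESeq2 1.42.0, limma 3.58.1 on log2(FPKM + 1) and log2(FPKM + 0.1), upper quartile or RLE factors, a filter at a mean count of 50, a looser filter at 1 count in any library, a replicate block and leaving out each library. RNA editing and sequence variants were not analysed here, and 1 marker gene is not reported here.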

Additional observations from a re-analysis of the deposited data

How the results depend on the processing

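The log2 fold change of CD38 kept its direction in every setting run. It was -0.72 to -0.70 in the edgeR and DESeq2 settings with all 4 libraries, -0.71 on log2(FPKM + 1) and -0.82 on log2(FPKM + 0.1), and its unadjusted p stayed under 0.05 in all of these, while its adjusted p stayed above 0.05. Leaving out 1 library moved it between -0.93 and -0.47, and with it the count of the 10 genes at an unadjusted p under 0.05 between 0 and 1. That count was 0 without NK scramble replicate 2 and without NK shADAR1 replicate 1. In these fits the lone library of a group is assumed to vary like the other group.

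The count of called genes, 0 with all libraries, was 1 to 47 on leaving out 1 library, with 47 without NK scramble replicate 1. Same-numbered libraries deviated together from their group means (r = 0.31). With 2 libraries a group both pairs must give this same value, so it counts once. The labels give these libraries only a shared number. With the replicate block 13 genes were called, none of them CD38 (log2 fold change -0.70, adjusted p = 0.186, edgeR). The wider NAD genes at an unadjusted p under 0.05, 1 with all libraries, numbered 3 with RLE scaling, 3 with upper quartile scaling, 4 with no filter beyond 1 count, 3 with DESeq2, 2 on log2(FPKM + 1), 2 on log2(FPKM + 0.1), 5 with the replicate block and 1 to 5 on leaving out 1 library. PARP12 was among them in 11 of 13 settings and PARP15 in 8.

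Directions that changed were all of small or imprecise differences. NMNAT1 was at -0.11 on log2(FPKM + 1), -0.14 on log2(FPKM + 0.1) and -0.018 with the replicate block. KYNU was at 0.052 and 0.14, and ANKRD42 at 0.020 and 0.038, on the same FPKM scales, so ANKRD42 resembled CD38 by counts only. Leaving out 1 library gave ranges of -0.76 to 0.52 for BST1, -0.47 to 0.047 for NAMPT, -0.52 to 0.91 for NAPRT, -0.36 to 0.31 for NMNAT1, -0.037 to 0.31 for SIRT1, -0.14 to 0.15 for PARP1, -0.45 to 0.034 for PNP, -0.68 to 0.14 for KYNU, -0.058 to 0.078 for SIRT2, -0.070 to 0.41 for TNKS2, -0.18 to 0.0091 for PARP6, -0.19 to 0.26 for OARD1 and -0.48 to 0.13 for TRPM2. The causes were not tested. A mean of at least 50 counts removes BST1 and gives no value for it. Genes under about 50 counts, such as BST1, PECAM1 and SIRT4, are limited by depth.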
